A study of Mus musculus with 6 samples.

Results

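Interferon response and class I presentation genes are 45 mouse genes listed by name, with no threshold on their measured values, though earlier results of these data were known when the list was made. They are the interferon receptors, the factors that carry the signal, the genes that interferons induce, and the genes that load peptides onto MHC class I. A gene entered where the array held a probe set annotated to it alone, which gave 38 genes with 49 probe sets, out of 8251 genes named in this way on the array. Tgtp1 and Ifi203 lie only on probe sets annotated to several genes, and levels of Stat2, Irf2, Oas1a, Oas2 and Bst2 were not analysed here. These 7 genes enter only the promoter counts, where they have a window.

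Double-negative thymocytes, the T cell precursors without CD4 and CD8, were profiled in RAG1/Ezh2 double mutant mice (3 arrays) and in RAG1-deficient mice (3 arrays). The descriptions thus name RAG1 as deficient or mutant in both groups. RAG1 is part of the recombinase of antigen receptor genes, and Ezh2 is the methyltransferase of Polycomb repressive complex 2. Setting one against the other shows how the transcripts stand when Ezh2 is lost on top of RAG1. The labels give no strain, age, sex, allele, deleted exons or Cre driver, and do not say whether thymocytes were pooled or came from separate animals. All p-values thus measure the spread between these arrays alone, and part of it may be technical. The samples' titles follow 3 patterns (numbered, Rag and Thy style), and every style has 1 array of each group. In both groups replicate 1 has the numbered style, replicate 2 the Rag style and replicate 3 the Thy style.

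Interferons are secreted signals of infection. Type I interferons act through the receptor chains Ifnar1 and Ifnar2 and a complex that holds Irf9 and binds the interferon-stimulated response element. Interferon gamma acts through Ifngr1 and Ifngr2 and on genes with a gamma-activated sequence. The induced genes block viruses, and those of the class I pathway cut proteins in the immunoproteasome, carry the peptides into the endoplasmic reticulum and load them onto class I molecules, by which killer T cells recognise infected cells.

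The response element is shown here because it is what many of the members have in common in sequence. Promoter windows from 250 bases before to 50 bases after each start were taken from RefSeq (GRCm38.p6), and 38 of the 45 genes matched by symbol. Its core, searched on both strands as GAAA, any 2 bases and GAAA, was found in 16 of these 38 genes (42.1%), against 1079 of all 27025 genes with such a window (3.99%). The letters TTCNNNGAA, which read alike on both strands, were found in 17 of the 38 (44.7%) against 9.55% of all genes, and 6 members held both. Matches of the 2 motifs may overlap and were counted apart. The response element was found in 5 of 6 inducible GTPase genes and 6 of 10 antiviral genes with a window, but in 1 of 6 class I presentation genes, B2m. Capitals mark the match, with 10 bases on either side, each written 5′ to 3′ on the strand that reads GAAA; where a window held several matches, 1 is given. The set was picked by hand, and Eif2ak2, the remaining tested gene with a match, is not shown.
Isg15 (chr4:156200871-156200900, minus strand): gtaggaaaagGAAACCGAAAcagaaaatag
Ifit1 (chr19:34640794-34640823, minus strand): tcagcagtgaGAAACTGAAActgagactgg
Ifit3 (chr19:34583397-34583426, minus strand): gaggaaagtaGAAACTGAAAcagacttaaa
Gbp2 (chr3:142620594-142620623, minus strand): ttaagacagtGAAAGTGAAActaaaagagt
Gbp3 (chr3:142559989-142560018, minus strand): ctgggaaataGAAACTGAAActgtgtcctg
Igtp (chr11:58199512-58199541, plus strand): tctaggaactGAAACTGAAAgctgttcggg
Irgm1 (chr11:48871425-48871454, minus strand): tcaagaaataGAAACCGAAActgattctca
Socs1 (chr16:10785594-10785623, minus strand): gccggaaagaGAAACCGAAAgcgggggtgg
B2m (chr2:122147538-122147567, plus strand): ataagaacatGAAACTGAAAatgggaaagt
The matches of Ifit1, Ifit3, Gbp3, Igtp and B2m share the letters GAAACTGAAA, and those of Isg15, Irgm1 and Socs1 share GAAACCGAAA. This sharing depends on which match was printed, since the windows of Ifit1 and Ifit3 also hold GAAAGTGAAA, the letters of Gbp2, and that of Isg15 holds 3 different cores. A match is a description of the letters and was not tested as a binding site.

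Values are linear intensities that the authors had scaled to a common mean, and a probe set's level cannot be set against that of another. Differences are given on the scale of log2(intensity + 23), double mutant minus RAG1-deficient, with the standard error (SE) of an unpaired limma fit. A paired fit with title style as a block is given beside it, since arrays of a style deviated together. A probe set is said to pass where its p, adjusted by Benjamini-Hochberg over all tested probe sets, was under 0.05. Ezh2 itself had intensities of 292, 651 and 724 on the double mutant arrays and 1435, 1641 and 1790 on the RAG1-deficient ones, lower in each pair. Its probe set passed in the paired limma fit (adjusted p = 0.0261) but not in the unpaired one (adjusted p = 0.332). All 11 thymocyte markers on the array, among them Ptcra and Cd3g, lay above the filter level of 86.5 on each of the 6 arrays. Their levels were not the same in both groups. Their summed intensity was 77988, 105891 and 72847 on the double mutant arrays and 82814, 123151 and 99239 on the RAG1-deficient ones, lower in each pair. Their log2 differences ran from -0.66 for Ptcra, whose groups did not overlap, to 0.11 for Gata3, and none passed. The ratio of 3′ to 5′ signal lay between 0.836 and 1.14 for Gapdh in the double mutant and between 0.889 and 1.35 in the RAG1-deficient arrays (exact permutation p = 0.6). For beta-actin the range was 1.24 to 2.77 in the double mutant and 1.40 to 2.26 in the RAG1-deficient arrays (exact permutation p = 0.9). With 3 arrays against 3 this test cannot go below 0.1. Rag1, targeted in both groups, still gave signal, at 5394, 5226 and 5171 on the double mutant arrays and 6933, 7241 and 7264 on the RAG1-deficient ones, and without the deleted exons named this checks nothing. Some arrays stood apart in markers of other cells: the summed intensity of 5 double-positive or mature T cell markers was 12264 on RAG1-deficient replicate 1 and at most 647 elsewhere, and that of 8 neutrophil markers was 15680 on RAG1-deficient replicate 2 and at most 5400 elsewhere. Summed erythroid markers were 30738, 16867 and 1153 on the double mutant arrays and 26986, 30879 and 706 on the RAG1-deficient ones, low on both Thy arrays. Hba-a1 was the brightest of the 4 on every array, and it and Alas2 were low on both Thy arrays. Klf1 (202 and 108) and Slc4a1 (123 and 173) were not the lowest of either group on the Thy arrays. Summed NK and innate lymphoid markers lay between 7884 and 10119 on the double mutant arrays and between 2852 and 4310 on the RAG1-deficient ones. Gzma was the brightest of these markers on every array. It had 8096, 7946 and 4982 on the double mutant arrays and 2796, 2163 and 1244 on the RAG1-deficient ones. Gzmb, Ncr1 and Klrk1 had log2 differences of 1.31, 0.45 and 0.36, and Klrd1 and Il2rb -0.32 and -0.02. The part of all these other cell types in the results was not tested.

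No member passed in either fit. Bright enough to test were 36 of the 38 genes and 43 of their 49 probe sets, against 7642 of all 12422 probe sets without the controls. The filter asks for 3 arrays of either group, and some tested genes, such as Ifit3 and Mx1, lay under its level on other arrays. Read from the brightest tested probe set of each gene, 22 lay above and 14 below 0 (quantile scaling turned Adar and Psmb8, both near 0), with a median log2 difference of 0.05 against -0.002 over all 7642 tested probe sets. All but Ifngr1 and Ifi204 differed by less than 0.5 log2 units. Among all tested probe sets 0.0393% passed in the unpaired limma fit and 0.667% in the paired one, so the count of 0 among the members is near what the array as a whole gave. At an unadjusted p under 0.05, 0 of 43 member probe sets counted in the unpaired fit, against 3.19% of all. In the paired fit 6 of 43 did, against 13.1% of all. The groups did not overlap at 2 of the 43, a probe set of Socs3 and one of Iigp1, against 7.13% of all.

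The intervals hold for each gene alone, without adjustment for the number of probe sets. They thus do not give the difference needed to pass: Ezh2, at -1.60, did not pass in the unpaired fit. The 95% interval of the unpaired fit reached a median of 0.77 log2 units to either side, from 0.44 for Irf9 to 1.69 for Ifit3. For 14 of the 36 genes it reached beyond 1 log2 unit in some direction, and for 4 of 36 in the paired fit. Differences of that size are not excluded for these 14 genes. In all 36 genes the wider of the within-group ranges exceeded the difference between the groups, as it did in 7330 of all 7642 tested probe sets.

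**Figure D1:**
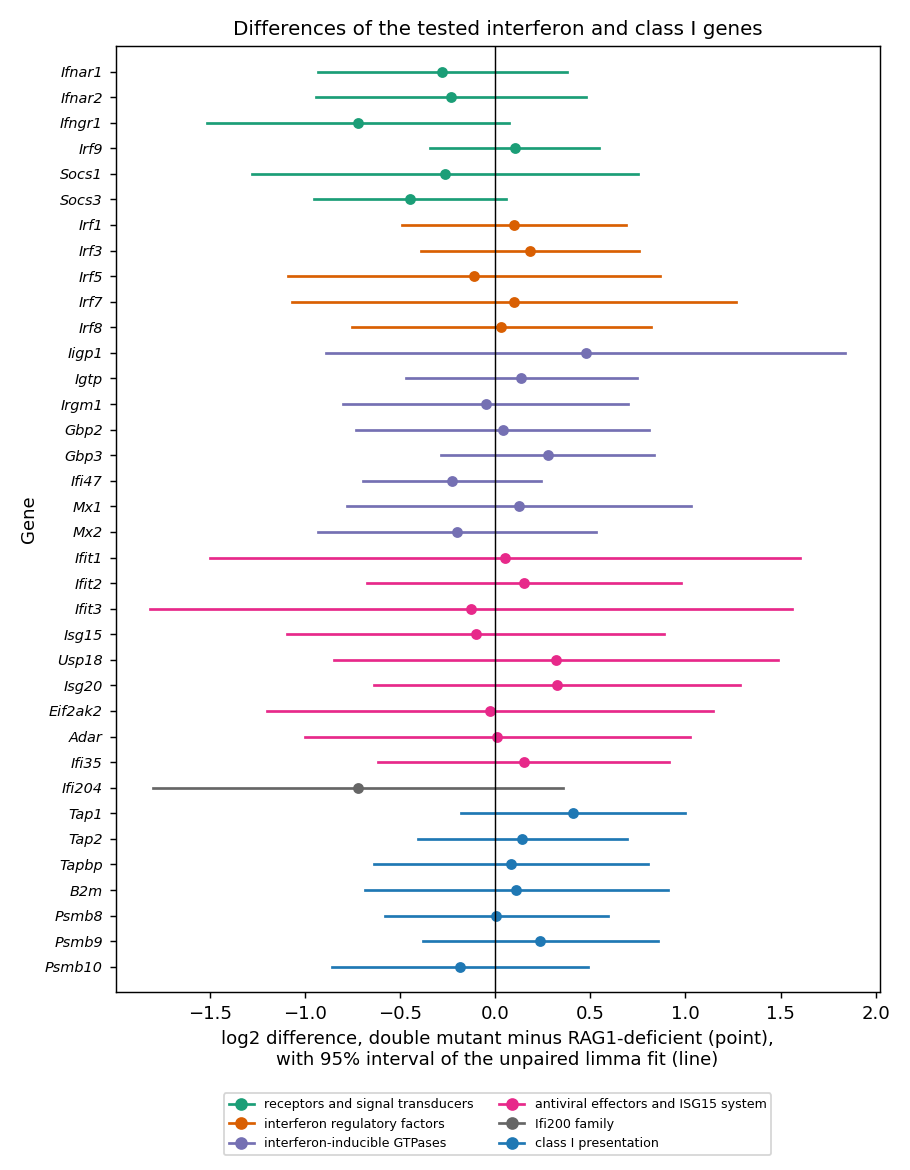
Log2 difference, double mutant minus RAG1-deficient, of each of the 36 tested genes (points, coloured by role) with the 95% interval of the unpaired limma fit (lines). All 36 intervals include 0, and Irf9 has the narrowest and Ifit3 the widest.

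Of the receptor and signalling genes 5 of 6 tested lay below 0, with a median log2 difference of -0.27. Ifngr1, the ligand-binding chain of the interferon gamma receptor, had intensities of 822, 852 and 664 on the double mutant arrays and 1197, 815 and 2207 on the RAG1-deficient ones. Its groups overlapped because the Rag pair was level (log2 difference 0.06), while the numbered pair differed by -0.53 and the Thy pair by -1.70. The log2 difference of Ifngr1 was -0.72 ± 0.35 (SE) and did not pass in the unpaired limma fit (adjusted p = 0.9999) or the paired one (adjusted p = 0.366). Without the Rag pair it passed as lower in the paired fit (log2 difference -1.11, adjusted p = 3.4e-04), a setting in which 2.5% of all probe sets passed. That fit takes its spread from 2 arrays in each group and from pooling over probe sets.

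Ifnar2, a chain of the type I receptor, was read by a pair of probe sets. The brighter had intensities of 874, 580 and 1232 on the double mutant arrays and 993, 805 and 1284 on the RAG1-deficient ones. The dimmer, which may cross-hybridise with related transcripts, had 184, 82.5 and 126 on the double mutant arrays and 211, 184 and 227 on the RAG1-deficient ones. On the dimmer probe set the groups overlapped only in that double mutant replicate 1 reached the level of RAG1-deficient replicate 2. Log2 differences were -0.23 ± 0.31 (SE) for the brighter and -0.63 ± 0.33 (SE) for the dimmer. Ifnar1, its partner chain, was lower in each pair, with a log2 difference of -0.28 ± 0.29 (SE). Ifngr2, the other chain of the gamma receptor, was too dim to be tested, with 140, 55.0 and 39.5 on the double mutant arrays and 42.4, 39.7 and 148 on the RAG1-deficient ones.

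Socs1 and Socs3 encode feedback inhibitors of cytokine receptors. The brighter probe set of Socs3, which may cross-hybridise with related transcripts, had intensities of 686, 666 and 710 on the double mutant arrays and 1089, 1030 and 751 on the RAG1-deficient ones. These groups did not overlap, though RAG1-deficient replicate 3 stood close to the double mutant. The log2 difference was -0.45 ± 0.22 (SE), and Socs3 passed in neither limma fit (paired adjusted p = 0.305). The dimmer probe set gave -0.25 ± 0.37 (SE) with overlapping groups. Socs1 had a log2 difference of -0.26 ± 0.44 (SE) and was lowest on the Rag arrays of both groups. Irf9, a subunit of the complex that binds the response element, differed little, with intensities of 1217, 1083 and 1059 on the double mutant arrays and 992, 1070 and 1057 on the RAG1-deficient ones.

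Of the interferon regulatory factors, transcription factors that start or relay the response, 4 lay above and 1 below 0, with a median log2 difference of 0.10. Differences ran between -0.11 for Irf5 and 0.18 for Irf3. Irf7, the amplifier of type I interferon production, had intensities of 651, 173 and 363 on the double mutant arrays and 590, 294 and 190 on the RAG1-deficient ones. The numbered array was the highest of each group. Its pairs went apart, with log2 differences of 0.14, -0.69 and 0.86 in the numbered, Rag and Thy pairs. A second probe set of Irf7 had a log2 difference of opposite sign, -0.22 against 0.10. Irf1, which drives class I and immunoproteasome genes, had 1450, 1327 and 1572 on the double mutant arrays and 1570, 1637 and 950 on the RAG1-deficient ones. Irf8, a factor of myeloid and dendritic cells, had a log2 difference of 0.03 ± 0.34 (SE).

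Many of the inducible GTPases attack the compartments in which pathogens live. Of the group 8 were tested, the antiviral Mx1 and Mx2 among them. Log2 differences lay between -0.23 for Ifi47 and 0.48 for Iigp1, with 5 above and 3 below 0. Iigp1 had intensities of 1039, 229 and 654 on the double mutant arrays and 695, 176 and 449 on the RAG1-deficient ones. The double mutant array was the higher in each pair, by 0.56, 0.34 and 0.52 log2 units in the numbered, Rag and Thy pairs. The title styles differed more than the groups: the Rag array was the lowest of each group and the numbered array the highest. A second probe set of Iigp1, which may cross-hybridise with related transcripts, had 390, 315 and 378 on the double mutant arrays and 229, 313 and 272 on the RAG1-deficient ones. These groups did not overlap, but the Rag arrays of both groups were nearly level. Neither probe set passed (adjusted p = 0.242 and 0.439 in the paired limma fit), although the 0.242 was the smallest among the members.

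The other GTPases showed no shared direction. Gbp3 had a log2 difference of 0.28 ± 0.24 (SE) and Gbp2, of the same guanylate-binding family, 0.04 ± 0.34 (SE). Igtp and Irgm1, which act on vacuoles, had 0.14 ± 0.27 (SE) and -0.05 ± 0.33 (SE). Mx1 and Mx2, dynamin-like antiviral proteins, were dim, Mx1 averaging 102 ± 15.1 on double mutant and 95.4 ± 34.8 on RAG1-deficient arrays, and Mx2 163 ± 32.7 on double mutant and 194 ± 64.2 on RAG1-deficient arrays (SD, n = 3 each). Their log2 differences were 0.12 and -0.20.

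Among 9 tested antiviral genes, 6 lay above and 3 below 0, with log2 differences between -0.13 for Ifit3 and 0.32 for Isg20, though Adar turned to -0.000654 with quantile scaling. Usp18, the protease that removes Isg15 from proteins and damps type I signalling, had intensities of 848, 830 and 621 on the double mutant arrays and 843, 1114 and 226 on the RAG1-deficient ones. Only RAG1-deficient replicate 3 was low. Ifit3, an RNA-sensing effector, had 293, 36 and 68.3 on the double mutant arrays and 219, 141 and 32.8 on the RAG1-deficient ones. Double mutant replicate 1 was high in its group and RAG1-deficient replicate 3 low in its own. Ifit1, which binds foreign RNA caps, had 130, 507 and 192 on the double mutant arrays and 211, 622 and 81.0 on the RAG1-deficient ones. The Rag array was the highest of each group for Ifit1 but the lowest of the double mutant for Ifit3.

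Isg15, a ubiquitin-like modifier, had intensities of 2095, 1596 and 886 on the double mutant arrays and 1898, 2315 and 838 on the RAG1-deficient ones, with both Thy arrays lowest. The exonuclease gene Isg20 had 1320, 1277 and 826 on the double mutant arrays and 892, 1644 and 472 on the RAG1-deficient ones. Eif2ak2, the RNA-activated kinase PKR, and Adar, which edits double-stranded RNA, showed log2 differences of -0.03 ± 0.51 (SE) and 0.01 ± 0.44 (SE). Both were lower on the Rag arrays than on the other arrays of their group. The second probe set of Adar had a log2 difference of -0.27, opposite in sign to the first. Ifit2 and Ifi35 had 0.15 ± 0.36 (SE) and 0.15 ± 0.34 (SE).

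**Figure D2:**
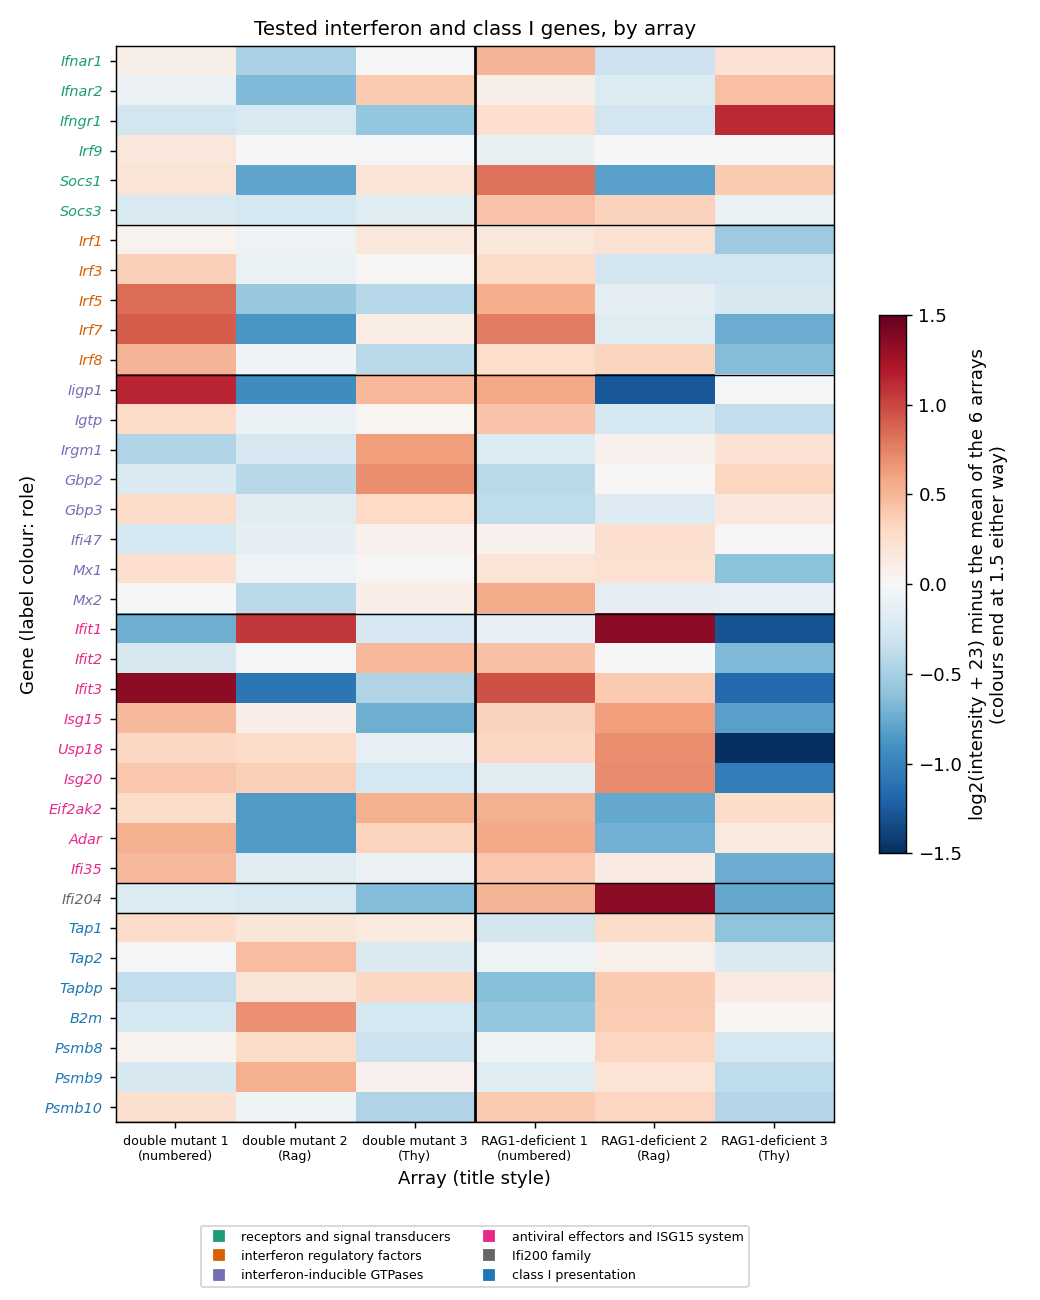
Level of each of the 36 tested genes (rows, grouped by role) on each array (columns, double mutant left and RAG1-deficient right), as log2(intensity + 23) minus the mean of the 6 arrays. RAG1-deficient replicate 3 was the lowest array for 16 of the 36 genes.

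RAG1-deficient replicate 3 was the lowest of the 6 arrays for 16 of 36 genes (44.4%), against 13.8% of all tested probe sets. This array was singled out after its values were seen, so the share is a description. The median gene lay 0.26 log2 units below its own 6-array mean there, whereas the median of all probe sets lay 0.06 above. Among the antiviral genes it was lowest for 7 of 9, and among GTPases for 2 of 8. Without this array the median log2 difference of the members was -0.14, against 0.05 with it, that of Usp18 was -0.34 against 0.32, and that of Ifngr1 was -0.34 against -0.72.

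Within pairs the induced genes differed in direction. Of the 17 tested GTPase and antiviral genes, the double mutant array was the higher for 17 in the Thy pair, for 3 in the Rag pair and for 9 in the numbered pair. Among all tested probe sets it was the higher for 51.1%, 51.2% and 49.9% in the Thy, Rag and numbered pairs. Over all 36 genes the median log2 difference was 0.02, -0.27 and 0.23 in the numbered, Rag and Thy pairs, whereas that of all tested probe sets lay between -0.0001 and 0.01. Each pair is 1 array against 1, so the difference between pairs has no replicate check and was not tested. The 10 tested genes with a response element in their window had medians of 0.002, -0.18 and 0.32 in the numbered, Rag and Thy pairs. The 20 tested genes whose window held no such letters had 0.02, -0.26 and 0.19, so the order of the pairs was the same in both sets.

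**Figure D3:**
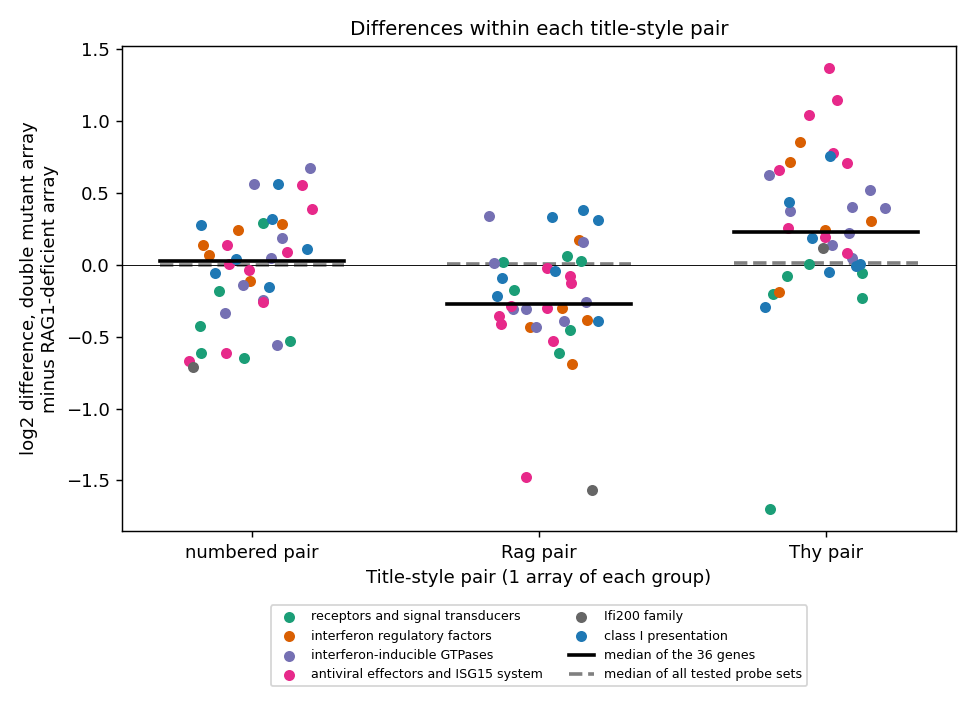
Log2 difference of the double mutant array minus the RAG1-deficient array within each title-style pair, for the 36 tested genes (points, coloured by role), with their median (solid line) and that of all tested probe sets (dashed line). The medians of the 36 genes were 0.02, -0.27 and 0.23 in the numbered, Rag and Thy pairs.

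Markers of other cell types that express these genes also differed between arrays. The summed intensity of 11 dendritic and antigen-presenting markers was 22325, 11482 and 6606 on the double mutant arrays and 31990, 24298 and 7069 on the RAG1-deficient ones. That of 11 monocyte and macrophage markers was 9323, 4262 and 3217 on the double mutant arrays and 9243, 8085 and 2738 on the RAG1-deficient ones. Both sums were low on both Thy arrays, but not every marker followed. Cd74, H2-Aa, H2-Ab1, H2-Eb1, Mpeg1 and C1qa were lowest of their group on both Thy arrays. Itgax, Ccl22 and Cd14 were so on neither. Lyz2 was lowest of its group on the RAG1-deficient Thy array but highest on the double mutant one (1423). Of the 17 GTPase and antiviral genes, 0 were lowest on the double mutant Thy array, against 13.3% of all tested probe sets. On the RAG1-deficient Thy array 9 were lowest, against 13.8% of all. Of the 11 macrophage markers 7 lay above the filter level on each array, with Lyz2, Mpeg1 and C1qa reaching 2719, 1974 and 2159, whereas Itgam, Adgre1, Fcgr3 and Marco lay under it on all 6. No marker was listed at 0. In whole-cell RNA, fewer cells of a type and less RNA per cell cannot be told apart. The part of these cells in the values of the members was not tested. Interferon gamma and beta themselves, Ifng and Ifnb1, outside the naming rule and chosen after their values were seen, were too dim to be tested. Ifng had 25.8, 24.6 and 14.9 on the double mutant arrays and 20.8, 11.3 and 55.7 on the RAG1-deficient ones. Ifnb1 had 68.4, 8.2 and 37.3 on the double mutant arrays and 15.8, 10.6 and 15.9 on the RAG1-deficient ones, so neither was above the filter level on any array. Of the other interferon genes 4 were tested, Ifna4, Ifna5, Ifna9 and Ifnab, with 3 above 0 and log2 differences between -0.00842 and 0.30, and none passed. All 4 lay under the filter level on some arrays, and the probe sets of Ifna5, Ifna9 and Ifnab may cross-hybridise with related transcripts.

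The Ifi200 family, DNA-binding proteins that sense nucleic acids or regulate growth, held the member with the most uneven levels. Ifi202b had intensities of 21.3, 2.6 and 3.4 on the double mutant arrays and 18.3, 553 and 4.0 on the RAG1-deficient ones. The signal rests on RAG1-deficient replicate 2 alone, and the gene was too dim on the others to be tested. The labels give no strain for this or any other array. Ifi204, a sensor of foreign DNA, was read by a probe set open to cross-hybridisation, at 470, 462 and 340 on the double mutant arrays and 785, 1414 and 312 on the RAG1-deficient ones. The same RAG1-deficient replicate 2 was the highest. The log2 difference of Ifi204 was -0.72 ± 0.47 (SE), with -1.57 in the Rag pair and 0.12 in the Thy pair, and did not pass in the paired limma fit (adjusted p = 0.353). The other probe sets annotated to Ifi204 alone lay under the filter.

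**Figure D4:**
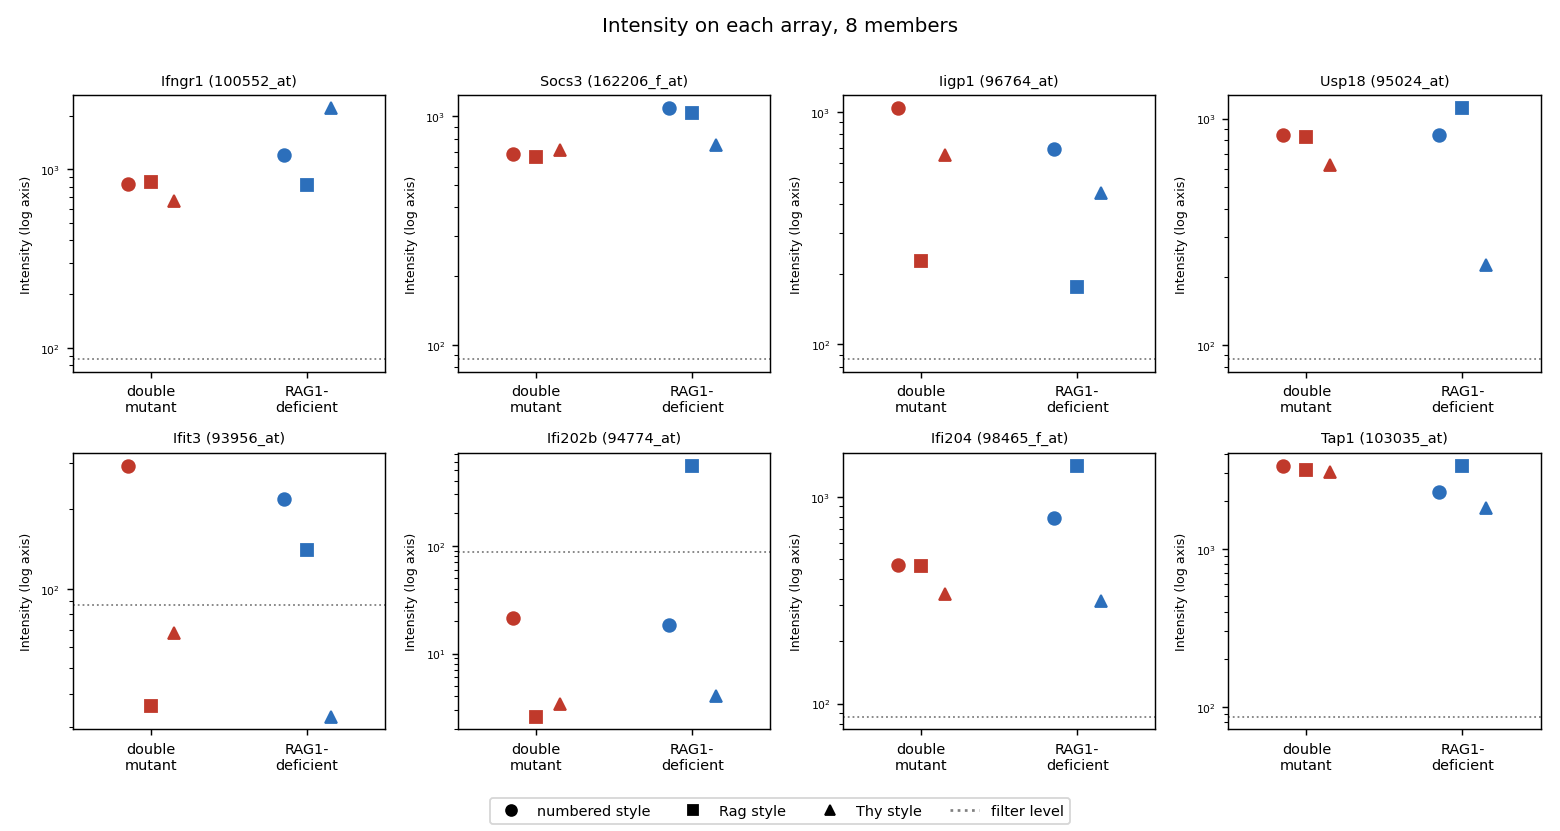
Intensity (log axis) of 8 members on each array, double mutant left and RAG1-deficient right, with a marker for each title style and the filter level of 86.5 as a dotted line. Ifi202b stood at 553 on RAG1-deficient replicate 2 and at 21.3 or less on the other 5 arrays.

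Of the 7 class I presentation genes 6 lay above and 1 below 0, with a median log2 difference of 0.11, though Psmb8 turned to -0.0228 with quantile scaling. Tap1, a subunit of the peptide transporter, had intensities of 3357, 3131 and 3070 on the double mutant arrays and 2268, 3337 and 1807 on the RAG1-deficient ones. The double mutant arrays lay close together, and the overlap came from RAG1-deficient replicate 2. The log2 difference of Tap1 was 0.41 ± 0.26 (SE) and did not pass in the paired limma fit (adjusted p = 0.371). Without the Rag pair it passed as higher in the paired fit (log2 difference 0.66, adjusted p = 0.0481). The Rag pair was the only one with the double mutant lower, at -0.09 against 0.56 and 0.76 in the numbered and Thy pairs. Leaving it out thus takes away the contrary pair, and 2.5% of all probe sets passed in that setting. A second probe set of Tap1, too dim to be tested, was lower in the double mutant in each pair. It had 55.5, 21.2 and 26.4 on the double mutant arrays and 93.0, 35.3 and 44.3 on the RAG1-deficient ones.

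Tap1 lies head to head with Psmb9, a catalytic subunit of the immunoproteasome. Their RefSeq starts are 226 bases apart, and their promoter windows share the 275 bases of chr17:34187306-34187580. Psmb9 had intensities of 3212, 5521 and 3975 on the double mutant arrays and 3341, 4388 and 2924 on the RAG1-deficient ones. Its groups overlapped, with a log2 difference of 0.24 ± 0.27 (SE). Psmb8, another catalytic subunit, had 12712, 14894 and 9834 on the double mutant arrays and 11753, 15350 and 10205 on the RAG1-deficient ones. Its log2 difference was 0.01 ± 0.26 (SE), with a 95% interval from -0.58 to 0.59. Psmb10, the remaining catalytic subunit, had 5265, 4248 and 3268 on the double mutant arrays and 5870, 5578 and 3279 on the RAG1-deficient ones, a log2 difference of -0.18 ± 0.30 (SE).

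B2m, the light chain of class I molecules, had intensities of 11428, 22072 and 11379 on the double mutant arrays and 9165, 17808 and 13941 on the RAG1-deficient ones. The Rag array was the highest of each group, and the log2 difference was 0.11 ± 0.35 (SE). Tap2, the partner of Tap1, had 3168, 4474 and 2789 on the double mutant arrays and 3079, 3431 and 2783 on the RAG1-deficient ones. Tapbp, which holds empty class I molecules at the transporter, was read by 3 probe sets with log2 differences of 0.08, 0.03 and -0.27. The one at 0.03 had 868, 151 and 1100 on the double mutant arrays and 761, 151 and 1164 on the RAG1-deficient ones, so it was low on the Rag arrays of both groups.

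Other genes of the pathways were counted beside the members. Of 106 listed, 51 were tested, with 29 above and 22 below 0. In the unpaired limma fit 0 passed, and in the paired fit 0 rose and 1 fell. Genes with an unadjusted p under 0.01 in the paired fit, which 4.55% of all probe sets had, are named here too. That gene was Ifi30, the lysosomal thiol reductase of antigen-presenting cells, with 364, 213 and 50.8 on the double mutant arrays and 907, 534 and 131 on the RAG1-deficient ones. Each double mutant array was lower than its partner, although the groups overlapped. Its log2 difference was -1.19 ± 0.75 (SE), and the adjusted p was 0.0388 in the paired and 0.9999 in the unpaired fit. It also missed the threshold in the paired fit with quantile scaling, with a pseudocount of 100, without the filter, without the trend, and without the numbered or the Thy pair. The sums of dendritic and antigen-presenting markers given above were lower in the double mutant in each pair too. In the Thy pair the sums were close, at 6606 against 7069. There H2-Aa (766 against 646) and H2-Ab1 (471 against 379) were higher in the double mutant, and others such as Cd74 (1843 against 2037) were lower. The part of these cells in the fall of Ifi30 was not tested.

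The class I heavy chains, which form the peptide groove, lay above 0 in 6 of 6 tested H2 genes (median log2 difference 0.58), each read from its brightest probe set, and none passed. Over all 11 tested probe sets 9 lay above 0, and those below were 1 of H2-K1 (-0.08) and 1 of H2-M3 (-0.45), neither of the kind open to cross-hybridisation. The groups did not overlap at 3 of the 11, against 7.13% of all probe sets. H2-Q10, on a probe set open to cross-hybridisation, had 326, 281 and 368 on the double mutant arrays and 190, 152 and 144 on the RAG1-deficient ones, without overlap. Its log2 difference was 0.91 ± 0.25 (SE), with adjusted p of 0.117 in the paired and 0.726 in the unpaired limma fit. A probe set of H2-D1 had 12923, 17550 and 13952 on the double mutant arrays and 8453, 15410 and 7454 on the RAG1-deficient ones (paired adjusted p = 0.171). H2-K1 and H2-Q4, chosen after their values were seen, had log2 differences on their brightest probe sets of 0.56 ± 0.30 (SE) and 0.82 ± 0.34 (SE). Heavy chain genes are near-identical over long stretches, and 8 of their 11 tested probe sets (identifiers ending in f_at or s_at) may cross-hybridise, so these are not separate measurements. RAG1-deficient replicate 3 was the lowest array for 6 of the 11. A probe set of Stat3, a factor of other cytokine receptors, had 1711, 1480 and 1033 on the double mutant arrays and 1228, 1133 and 722 on the RAG1-deficient ones. It was higher in the double mutant in each pair and passed in neither limma fit (paired adjusted p = 0.183).

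**Figure D5:**
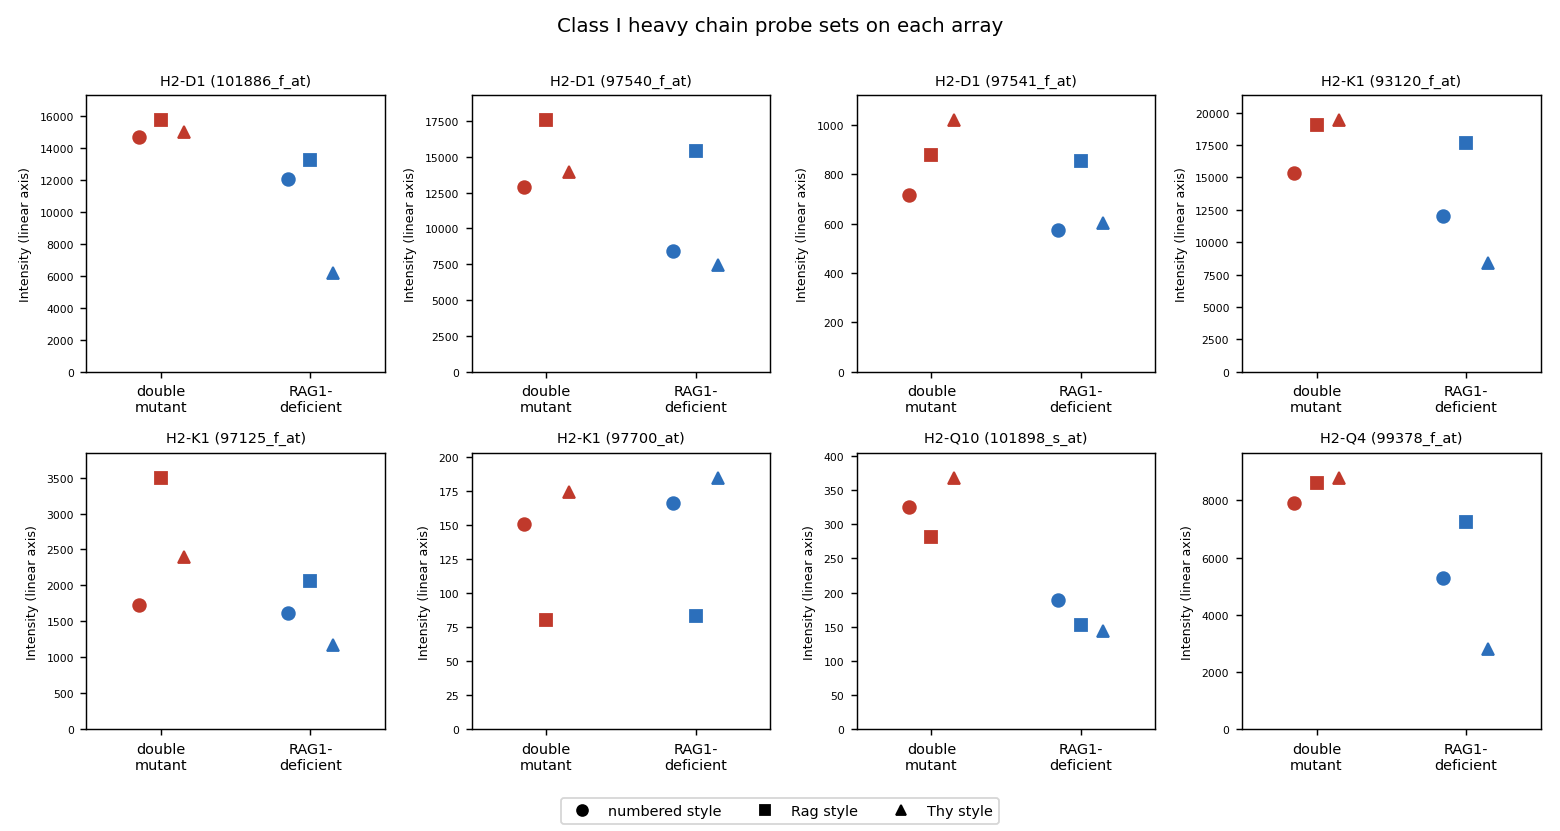
Intensity (linear axis from 0) of the 8 tested probe sets of H2-D1, H2-K1, H2-Q4 and H2-Q10 on each array, double mutant left and RAG1-deficient right, with a marker for each title style. For H2-Q10 the double mutant arrays lay between 281 and 368 and the RAG1-deficient ones between 144 and 190; the groups also did not overlap at H2-Q4 and 1 of the 3 H2-D1 probe sets.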

How the data were processed

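Total RNA of 6 samples was measured on Affymetrix mouse arrays. The authors deposited linear intensities, 1 per array for 12488 probe sets, and the software behind them is not given in the sources used here. The 2%-trimmed means of the deposited intensities lay between 500.293 and 500.37, so each array had been scaled to a common mean. Genes were named from the platform table with symbols checked in RefSeq (GRCm38.p6), which matched 10817 of 10833 probe sets with a single gene. The 66 control probe sets were left out. Values were tested as log2(intensity + 23), the pseudocount being the 20th percentile of all values. Probe sets above 86.5, the 40th percentile, on at least 3 arrays were tested, 7642 in all. A 2-sided limma 3.58.1 fit in R 4.3.3 (eBayes with trend) used group alone, with Benjamini-Hochberg adjustment over all 7642 and a threshold of 0.05. The fit was checked on simulated data. Tables and plots were made in Python 3.11.15 with matplotlib 3.10.9. Detection calls were not used, and precision is limited by having 6 arrays.

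Title styles were taken as pairs because deviations from the group means correlated at 0.570, 0.736 and 0.602 within the numbered, Rag and Thy styles, over the limit of 0.1; no label states a shared litter or batch.

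The members and lists were chosen with earlier results of these data known. Values per array are given for members whose groups do not overlap, whose p is under 0.05 in either fit, that are among the 5 brightest, or that have an array over 1.5 log2 units from its group, and also for some members chosen after their values were seen. Alternatives were the title-style block, quantile scaling, other pseudocounts and filters, no trend, all probe sets of a gene, and leaving out each array or pair. Pathway genes are named at an adjusted p under 0.05 or a p under 0.01 in either fit.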

Additional observations from a re-analysis of the deposited data

How the results depend on the processing

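No member passed under any alternative that kept all arrays, in either fit, and the median log2 difference of the members lay between 0.03 and 0.08 there. Over all probe sets, 43 were higher and 8 lower with the replicate block, 5 higher with quantile scaling, 17 with the block and quantile scaling, and 6 with the stricter filter, against 3 and 0 in the unpaired fit. With the replicate block, alternatives added after seeing the data gave 24 higher and 6 lower (pseudocount 1), 46 and 9 (pseudocount 100), 5 and 0 (no filter), 35 and 8 (stricter filter), and 8 and 1 (no trend). Other pathway genes had 1 lower, Ifi30, with the replicate block, also at pseudocount 1 and with the stricter filter, and 0 with quantile scaling, pseudocount 100, no filter or no trend. With arrays or pairs left out, the counts ranged from 0 to 127 higher and 0 to 64 lower over all probe sets, from 0 to 1 in each direction for the members, and from 0 to 5 higher and 0 to 1 lower for the other pathway genes. The highest of these came from the paired fit without the Rag pair, where Ifngr1, Tap1, H2-K1, H2-D1, H2-Q4, Ifitm3, Trim21 and Ifi30 passed. The median of the members then ranged from -0.15 to 0.14. Quantile scaling turned Adar to -0.000654 and Psmb8 to -0.0228, with and without the block. The sign held for 11 genes with any array or pair left out and turned for 25, whose log2 differences ranged from -0.35 to 0.44 for Adar, -0.21 to 0.33 for B2m, -0.42 to 0.39 for Eif2ak2, -0.30 to 0.28 for Gbp2, -0.18 to 0.39 for Ifi35, -0.58 to 0.73 for Ifit1, -0.35 to 0.56 for Ifit2, -0.83 to 0.55 for Ifit3, -0.49 to 0.0402 for Ifnar2, -0.0129 to 0.38 for Igtp, -0.0413 to 1.06 for Iigp1, -0.21 to 0.30 for Irf1, -0.56 to 0.15 for Irf5, -0.33 to 0.56 for Irf7, -0.28 to 0.25 for Irf8, -0.37 to 0.16 for Irgm1, -0.54 to 0.24 for Isg15, -0.11 to 0.76 for Isg20, -0.15 to 0.34 for Mx1, -0.41 to 0.0306 for Mx2, -0.13 to 0.17 for Psmb8, -0.73 to 0.0766 for Socs1, -0.0536 to 0.29 for Tap2, -0.22 to 0.30 for Tapbp and -0.34 to 0.75 for Usp18. Leaving out 1 array leaves its title style in 1 group only. The causes of these shifts were not tested.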

Other observations

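Probe sets annotated to several genes stayed out of the report. A second probe set that names Ifi202b, shared with another locus, had intensities of 14.7, 2.9 and 6.0 on the double mutant arrays and 6.3, 120 and 8.7 on the RAG1-deficient ones, again with RAG1-deficient replicate 2 alone above the filter level. The probe set shared by Ifi203 and relatives had 657, 1332 and 1312 on the double mutant arrays and 653, 2329 and 1337 on the RAG1-deficient ones, and the same array was the highest. Another, shared by Ifi204 and relatives, had 3674, 2900 and 3154 on the double mutant arrays and 5037, 3450 and 3616 on the RAG1-deficient ones. There RAG1-deficient replicate 2 was the lowest of its group. The probe set shared by Tgtp1 and Tgtp2, inducible GTPases, had 4140, 3876 and 3998 on the double mutant arrays and 3184, 4850 and 3572 on the RAG1-deficient ones. Its log2 difference of 0.07 ± 0.23 (SE) passed in neither limma fit.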
